A study of Rattus norvegicus with 63 samples.

Results

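rno-miR-192, rno-miR-194 and rno-miR-215 are the 3 mature miRNAs of a pair of small gene clusters in the rat. They were selected by name from the 350 rat miRNAs printed on the array, with earlier results of these arrays already known, so the calls given for them are not independent evidence about them. miR-192 and miR-194 were detected and tested among 162 miRNAs, and miR-215 was detected on no array. Liver RNA of 63 male Wistar Hanover rats, 8 to 10 weeks old at assignment, was hybridised to 1-colour Agilent miRNA arrays, with 1 array per rat. The rats were dosed orally in 15 compound groups and 6 vehicle control sets, each of 3 rats, and the treated animals were those in which histopathology had shown some change in the liver. Precision is limited by these group sizes.

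The study asked how liver carcinogens differ from non-carcinogens after short dosing. Its non-genotoxic carcinogens (NGC) were Phenobarbital sodium (PB, 14 days, no dose in the labels), Piperonylbutoxide (PBO, 1200 mg/kg per day, 3 days), Dehydroepiandrosterone (DHEA, 600 mg/kg, 14 days) and Acetamide (AA, 3000 mg/kg, 14 days). The same class held Methapyrilene HCl (MPy, 60 mg/kg, 7 days), Methylcarbamate (Mcarb, 400 mg/kg, 14 days), Diethylstilbestrol (DES, 10 mg/kg, 3 days) and Ethionine (ETH, 200 mg/kg, 14 days). C.I Direct Black (CIDB, 146 mg/kg, 7 days) and Dimethylnitrosamine (DMN, 4 mg/kg, 7 days) were the genotoxic carcinogens (GC). Cefuroxime (CFX, 250 mg/kg, 14 days) and Nifedipine (Nif, 3 mg/kg, 14 days) were the non-carcinogens (NC). Cyproterone acetate (CPA, 100 mg/kg, 14 days), Thioacetamid (TAA, 19.2 mg/kg, 7 days) and Wy-14643 (Wy, 60 mg/kg, 3 days) had no defined class.

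The controls of CIDB and DMN were corn oil (CO) set 3, dosed for 7 days, and those of CPA were CO set 4, dosed for 14 days. All methylcellulose (MC) sets are labelled with 14 days. Set 1 served AA, DHEA, Mcarb, MPy, TAA and Wy, set 2 served CFX and Nif, set 5 served DES, ETH and PBO, and set 6 served PB. Compounds with the same control set share its rats, and the labels give MPy, TAA, Wy, DES and PBO shorter dosing than their controls. The methods of the study call the controls time-matched, and the sources used here do not settle this. If the labels hold, compound and dosing time cannot be told apart for these 5 compounds. The labels do not say whether rats of a group were housed or processed apart, and p-values measure the spread between these rats.

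A miRNA is a short RNA that guides silencing proteins to messenger RNAs that pair with its seed, bases 2 to 8. miR-192 and miR-194 are cut from a shared primary transcript that is abundant in hepatocytes and in the epithelium of intestine and kidney, and the transcript responds to HNF factors of the hepatocyte and to p53. miR-215 has the seed of miR-192 and lies beside a further copy of miR-194 at a distant locus. In bulk liver, fewer hepatocytes and less of a miRNA per hepatocyte cannot be told apart.

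The mature sequences are shown because they decide which of the genes the array can tell apart. They are RefSeq entries on the GRCr8 build, written 5′ to 3′ with the seed in capitals. All lie in miRNA genes on the + strand, miR-192 at chr1:212994232-212994252, miR-194 at chr1:212994038-212994059 (Mir194-2) and again at chr13:99382730-99382751 (Mir194-1), and miR-215 at chr13:99383003-99383024.
miR-192: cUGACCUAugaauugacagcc
miR-215: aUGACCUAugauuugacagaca
miR-194: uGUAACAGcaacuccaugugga

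miR-192 and miR-215 share the seed UGACCUA, which no other of the 693 mature names in the RefSeq table has. They were identical at 18 of the 21 bases compared, and the 3 substitutions from miR-192 to miR-215 were C1A, A12U and C20A, counted from the 5′ end. The seed GUAACAG belongs to miR-194 alone. The hairpins of the miR-194 genes are shown because they differ outside a mature sequence that is the same in both, here in capitals, so a probe for mature miR-194 reads the sum of both genes.
Mir194-2: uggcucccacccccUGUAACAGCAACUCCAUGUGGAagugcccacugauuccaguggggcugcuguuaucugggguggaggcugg
Mir194-1: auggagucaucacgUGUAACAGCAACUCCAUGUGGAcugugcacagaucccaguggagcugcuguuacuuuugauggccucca

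The hairpins of Mir194-2 and Mir192 lie 100 bases apart on chromosome 1 and together span 295 bases. Those of Mir194-1 and Mir215 lie 191 bases apart on chromosome 13 and together span 371 bases. Each member had 2 probes with 20 spots in all on every array. No other arm of these hairpins was among the members.

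Both detected members were bright and miR-215 was not. miR-192 was well above background on 63 of 63 arrays, with a median spot brightness per array of 803 to 3354.25 scanner units. miR-194 was also well above background on 63 of 63 arrays, with 264.75 to 917.5 units. The median brightness of miR-215 was 72.5 to 242 units and only 2 of its 1260 spots over all arrays were well above background. On 59 of the 63 arrays its value was below that of the dimmest miRNA well above background, so these arrays give only an upper bound for miR-215. The signal of miR-192 therefore did not appear on the miR-215 probes despite the shared seed, and brightness of different probes does not rank amounts of RNA.

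**Figure D1:**
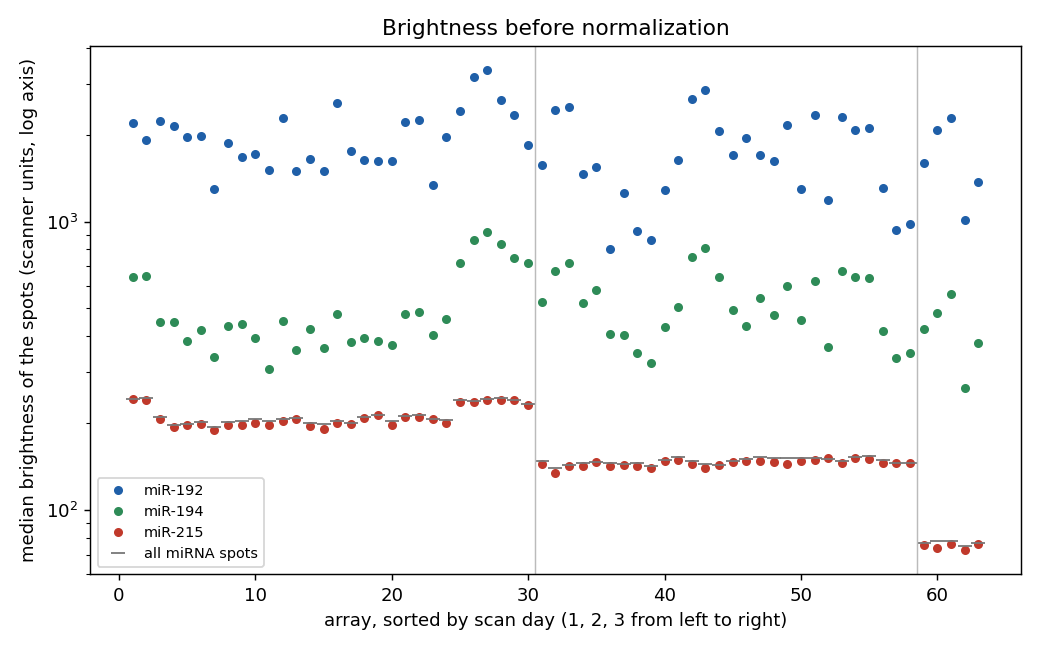
Median brightness of the spots of miR-192, miR-194, miR-215 and of all miRNA spots on each of the 63 arrays, in scanner units on a log axis, with the arrays sorted by scan day. miR-215 lies on the median of all spots on every scan day, while miR-192 and miR-194 lie above it on all 63 arrays.

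The level of an undetected miRNA moved with scan day. On scan day 1 miR-215 had 189 to 242 units, on day 2 it had 134.75 to 151 units, and on day 3 only 72.5 to 76 units. The median of all spots moved in the same way. The arrays were made on 9 slides. All values below are log2 expression after quantile normalization between arrays without background correction, as the study describes it, so this floor stays in the values and a log2 fold change is smaller than with the background subtracted.

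The scanner files and the value table of the authors do not pair samples with arrays in the same way. In 48 samples the table's column followed the sample's own scanner file, with r of 0.797 to 0.959 over 71 miRNAs. In 15 samples it followed the file of another sample, with r of 0.842 to 0.964 against -0.0504 to 0.675 for its own. DES columns matched arrays that are filed under DHEA, and DHEA columns those under DES. MC sets 1, 5 and 2 matched arrays filed under sets 5, 2 and 1. Which pairing is right was not tested. The scanner files are used as filed, and the values with the other pairing are given for each compound it touches.

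miR-192 ranged from 10.25 to 11.28 and miR-194 from 8.61 to 9.51 over the 63 rats. Within groups the pooled SD was 0.0859 for miR-192 and 0.0813 for miR-194, and the group means spanned 0.92 and 0.75. The group means thus spread further than the rats within a group. The highest mean of miR-192 was that of the arrays filed as DES, 11.19 ± 0.08 (SD, n = 3), followed by PB at 10.91 to 11.11 and MC set 2 at 10.96 to 11.05. The lowest were DHEA with 10.53 ± 0.15, CIDB with 10.39 ± 0.11 and ETH with 10.27 ± 0.02 (SD, n = 3). Of the 20 neighbours in the order of the 21 groups, 19 overlapped, and only DES lay wholly above the next group.

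For miR-194 the highest mean was that of Wy, 9.36 ± 0.15 (SD, n = 3), followed by MC set 2 with 9.25 ± 0.01 and MC set 1 with 9.20 ± 0.08. DMN with 8.75 ± 0.09, CIDB with 8.75 ± 0.17 and ETH with 8.62 ± 0.01 were the lowest. Here too 19 of 20 neighbours overlapped, and only ETH lay wholly below the group before it. ETH was thus the lowest of 21 groups for both miRNAs, with rats that differed by at most 0.04.

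**Figure D2:**
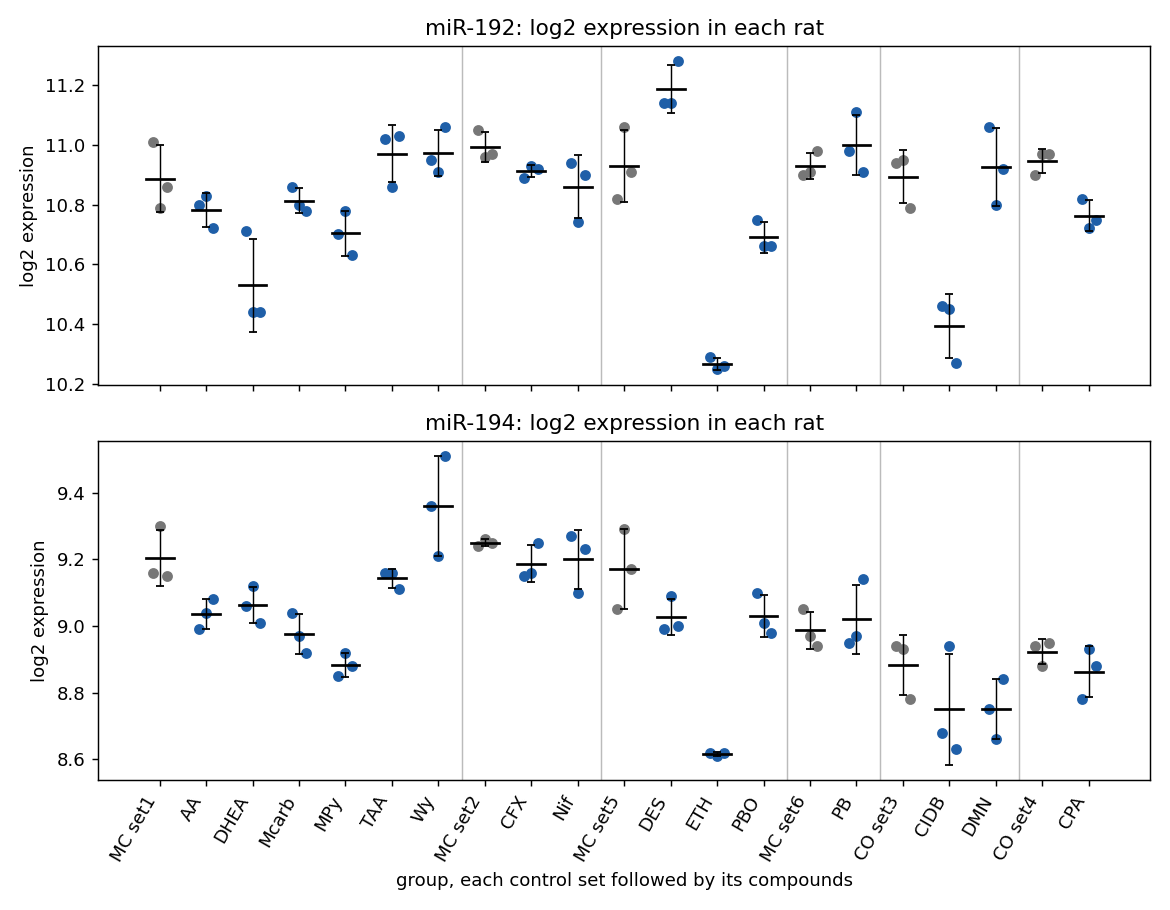
Log2 expression of miR-192 (top) and miR-194 (bottom) in each rat, with the mean and SD of the 3 rats per group, control sets in grey and compounds in blue. The ETH rats lie at 10.25 to 10.29 and 8.61 to 8.62, below the rats of MC set 5.

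Over 15 compounds the members gave 30 fold changes, of which 7 were called with limma at an adjusted p under 0.05, 6 lower and 1 higher. These are 20% and 3.33% of the pairs, while 6.71% of all pairs of miRNA and compound were called lower and 7.57% higher. miR-192 was below its controls with 10 compounds and miR-194 with 13, and both were below in 10. Because 6 compounds share MC set 1 and 3 share MC set 5, these counts are not independent. All treated rats lay below all their controls for miR-192 with 8 compounds and for miR-194 with 5. For miR-192 these include CFX and Nif, with which 0% of the miRNAs were called. How often other miRNAs lay wholly below or below on average was not counted, so these counts are descriptions and not a result about the members. With arrays paired as in the value table, 9 of 30 were called lower and 2 higher.

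**Figure D3:**
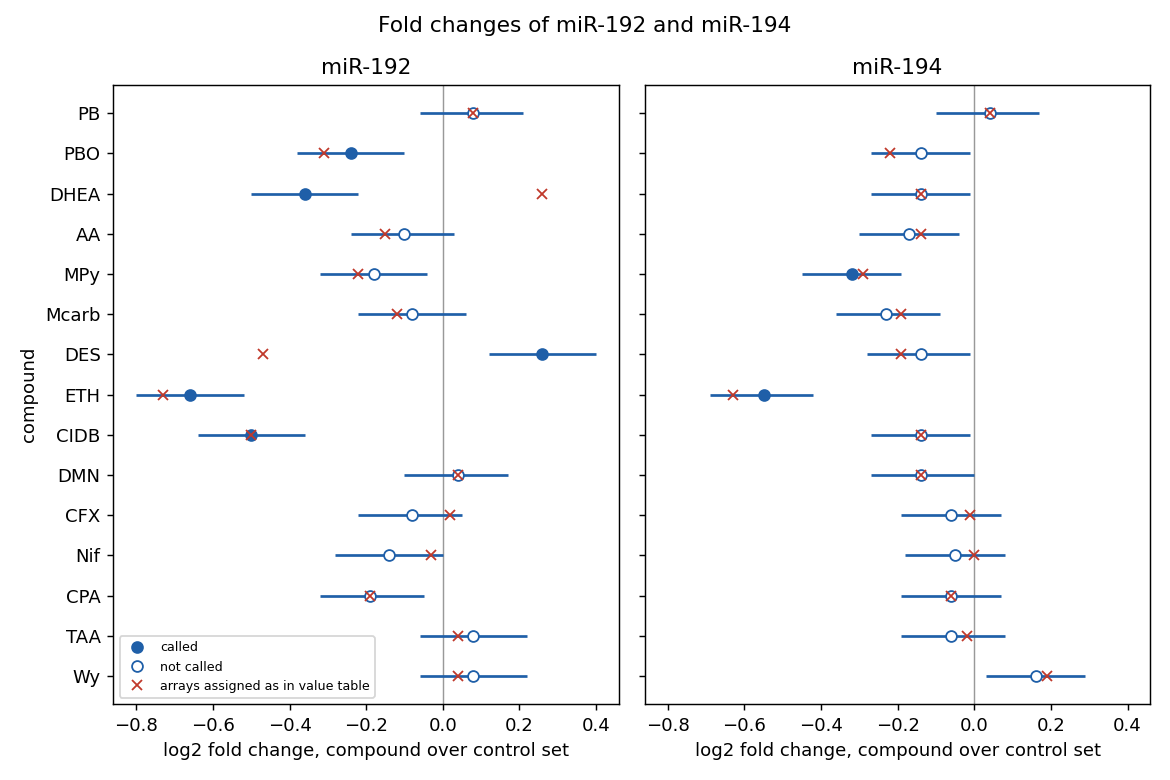
Log2 fold change of miR-192 (left) and miR-194 (right) for 15 compounds over their control sets, with 95% confidence intervals. Filled points were called at an adjusted p under 0.05, and crosses give the values with arrays paired as in the value table, which turn the sign of miR-192 for DHEA and DES.

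Both members were lower with ETH, an analogue of methionine. miR-192 was 10.29, 10.25 and 10.26 in the ETH rats and 10.82, 11.06 and 10.91 in MC set 5. miR-194 was 8.62, 8.61 and 8.62 against 9.05, 9.29 and 9.17. Neither miRNA had overlapping groups. The log2 fold change was -0.66 for miR-192 (SE 0.07, limma adjusted p = 1.98e-10), which is 1.58-fold lower, and -0.55 for miR-194 (SE 0.07, limma adjusted p = 4.88e-09), which is 1.47-fold lower. With ETH 16% of the 162 miRNAs were called. Among these miRNAs miR-192 had the largest decrease and miR-194 the next.

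The ETH rats were all on 1 slide, without rats of MC set 5, and on the same scan day as all of them. With slide as a fixed block the fold changes were -0.53 (adjusted p = 0.178) and -0.33 (adjusted p = 0.45), and neither was called. The slide of ETH also held MC set 2, and against those arrays, which the value table gives to MC set 5, the fold changes were -0.73 and -0.63 (limma adjusted p = 1.03e-11 and 1.09e-10). In the value table itself they were -0.97 and -1.12. Over 13 other settings miR-192 ran from -1.02 to -0.53 and miR-194 from -1.12 to -0.33, and each was called in 12.

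With CIDB, an azo dye metabolised to benzidine, miR-192 was lower. The rats had 10.46, 10.45 and 10.27 against 10.94, 10.95 and 10.79 in CO set 3, and all treated rats lay below all controls. The log2 fold change was -0.50 (SE 0.07, limma adjusted p = 2.28e-07), and 20.4% of the 162 miRNAs were called. For miR-194 the CIDB rats had 8.68, 8.94 and 8.63 against 8.94, 8.93 and 8.78, a change of -0.14 (adjusted p = 0.124) with overlapping groups. Without CIDB replicate 2, which had the highest miR-194, the change was -0.23 (adjusted p = 0.00926).

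The miR-192 call with CIDB depended on the scaling. Scaled to the 75th percentile of the miRNAs detected on all arrays the fold change was -0.09 (adjusted p = 0.544), and the median of all miRNAs rose by 0.22, so that miR-192 was -0.31 relative to it. Scaled over all probes it was -0.25 (adjusted p = 0.352), or -0.49 relative to the median. In the value table it was -0.50. The CIDB rats were spread over 3 slides. The only CIDB rat on the slide of CO set 3 differed by -0.63 from its controls, and the 2 CIDB rats of scan day 1 by -0.53. DMN, the other genotoxic carcinogen, was compared with the same controls. Its rats had miR-192 of 11.06, 10.80 and 10.92, a change of 0.04 with a 95% interval of -0.10 to 0.17, and miR-194 changed by -0.14 (limma adjusted p = 0.135). Neither was called, while 23.5% of the miRNAs were.

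With PBO, an inhibitor of cytochrome P450 enzymes, miR-192 was lower. The values were 10.75, 10.66 and 10.66 against 10.82, 11.06 and 10.91 in MC set 5, a change of -0.24 (SE 0.07, limma adjusted p = 0.0172), with 8.64% of the miRNAs called. All PBO rats lay below all controls. Within the slide that held all PBO rats and 2 of the controls the difference was -0.29. The call was lost without PBO replicate 2 (-0.22, adjusted p = 0.0774), without PBO replicate 3 (-0.22, adjusted p = 0.0744) or without replicate 8 of MC set 5 (-0.17, adjusted p = 0.179), and under 3 of the 13 other settings. miR-194 changed by -0.14 (adjusted p = 0.15) in the same rats. With arrays paired as in the value table miR-192 was -0.31 (adjusted p = 0.00149) and miR-194 was -0.22, which was called (adjusted p = 0.0195).

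With MPy, an antihistamine, miR-194 was lower. Its rats had 8.85, 8.92 and 8.88 against 9.16, 9.30 and 9.15 in MC set 1, with no overlap. The fold change was -0.32 (SE 0.07, limma adjusted p = 0.000326), with 18.5% of the miRNAs called. It was called in 12 of 13 other settings, which ran from -0.82 to -0.27, and was -0.28 (adjusted p = 0.294) with slide as a fixed block. On scan day 2, which held all MPy rats and 2 of the controls, the difference was -0.34. miR-192 was 10.63 to 10.78 against 11.01, 10.79 and 10.86, all treated rats below all controls, and its change of -0.18 missed the threshold (adjusted p = 0.0573). It passed without MPy replicate 2 (adjusted p = 0.0385) or without replicate 5 of MC set 1 (adjusted p = 0.0355). With the other pairing of arrays miR-192 was -0.22, which was called (adjusted p = 0.0201), and miR-194 was -0.29 (adjusted p = 0.00245).

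The arrays filed as DHEA and DES gave opposite changes of miR-192. DHEA is a precursor of androgens and oestrogens, and DES is a synthetic oestrogen. The arrays filed as DHEA had 10.71, 10.44 and 10.44 against MC set 1 with 11.01, 10.79 and 10.86, a change of -0.36 (SE 0.07, limma adjusted p = 0.000105), with 18.5% of the miRNAs called. The arrays filed as DES had 11.14, 11.14 and 11.28 against MC set 5 with 10.82, 11.06 and 10.91, a change of 0.26 (SE 0.07, limma adjusted p = 0.00357), with 37% called. In both the treated rats did not overlap the controls. The DHEA call was lost with only the groups compared (-0.36, adjusted p = 0.0803) and with 75th percentile scaling over all probes (-0.46, adjusted p = 0.0997). The DES call was lost with slide as a block (0.57, adjusted p = 0.179) and with that scaling (0.30, adjusted p = 0.222).

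With arrays paired as in the value table both directions turned. DHEA was then higher by 0.26 (limma adjusted p = 0.00357) and DES changed by -0.47 (adjusted p = 7.55e-07), and in the value table itself the changes were 0.31 (adjusted p = 0.0149) and -0.56 (adjusted p = 2.42e-05). The data therefore hold 1 group of 3 arrays with high and 1 with low miR-192, and which compound each belongs to rests on the pairing. The arrays filed as DES were scanned on day 1 and their controls on day 2, and with scan day as a block their change was 0.17 (adjusted p = 0.343). miR-194 was -0.14 for both compounds as filed (adjusted p = 0.144 for DHEA and 0.0782 for DES). It was -0.14 and -0.19 (adjusted p = 0.0782 and 0.0409) with the other pairing. Without replicate 7 of MC set 5 the arrays filed as DES gave -0.20 (adjusted p = 0.0237).

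No change of either member was called with the other compounds as filed. AA, with 13.6% of the miRNAs called, gave -0.10 for miR-192 and -0.17 for miR-194, and Mcarb, with 1.85% called, gave -0.08 and -0.23 (limma adjusted p = 0.0505). miR-194 of all AA rats and all Mcarb rats lay below all rats of MC set 1, and with Mcarb it passed the threshold without Mcarb replicate 1 (adjusted p = 0.0339) or replicate 6 of MC set 1 (adjusted p = 0.0261). PB, with 3.09% called, gave 0.08 and 0.04. TAA, with 21.6% called, gave 0.08 and -0.06. With the other pairing none of these was called either, and the values were -0.15 and -0.14 with AA, -0.12 and -0.19 with Mcarb, and 0.04 and -0.02 with TAA.

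Wy, an agonist of PPAR-alpha, gave 0.08 for miR-192 and 0.16 for miR-194 (95% interval 0.03 to 0.29, limma adjusted p = 0.0636), with 25.9% of the miRNAs called. Its miR-194 values were 9.36, 9.21 and 9.51, the first and last above MC set 1 and the other within it. The change passed the threshold without Wy replicate 2 (0.23, adjusted p = 0.0157) or without replicate 5 of MC set 1 (0.21, adjusted p = 0.0386). The Wy rats were all scanned on day 1 and their controls on days 2 and 3. With scan day as a block the change was 0.33 (adjusted p = 0.00264). With the other pairing miR-194 was 0.19, which was called (adjusted p = 0.0485), and miR-192 was 0.04. CPA, with 5.56% called, gave -0.19 for miR-192 (adjusted p = 0.109) and -0.06 for miR-194. All 3 CPA rats, at 10.72 to 10.82, were below the 3 rats of CO set 4 on the same slide, at 10.90 to 10.97.

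The non-carcinogens CFX and Nif had 0% of the miRNAs called by limma, with 1 and 20 of 162 at an unadjusted p under 0.05. The miR-192 change was -0.08 (95% interval -0.22 to 0.05) with CFX and -0.14 (-0.28 to 0.00) with Nif. The miR-194 change was -0.06 (-0.19 to 0.07) and -0.05 (-0.18 to 0.08). All rats of both compounds lay below the rats of MC set 2 for miR-192, and with arrays paired as in the value table the changes were 0.02 and -0.03 for miR-192 and -0.01 and 0.00 for miR-194.

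**Figure D4:**
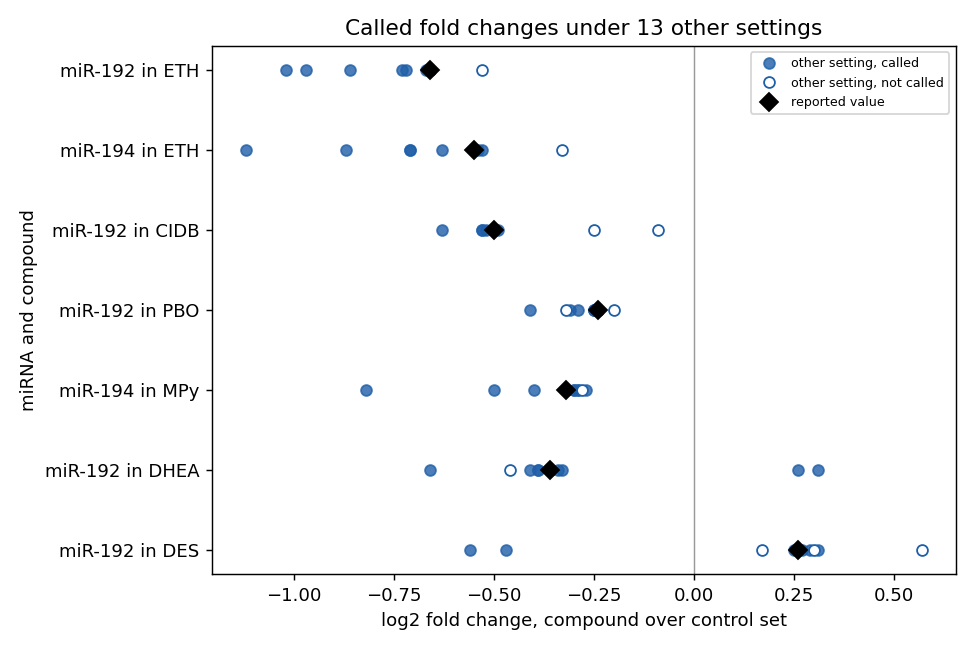
The 7 called log2 fold changes (diamonds) and their values under 13 other settings of normalization, filter, batch, controls and array pairing (circles, filled where called). The DHEA and DES values of miR-192 lie on both sides of 0, and the ETH, CIDB, PBO and MPy values stay below 0.

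The 2 probes of a member gave the same direction in 28 of 30 pairs and differed by at most 0.21. For ETH they gave -0.77 and -0.56 for miR-192 and -0.66 and -0.45 for miR-194, and for CIDB -0.41 and -0.59 for miR-192. Both probes of each member thus gave these changes. For miR-194 with CIDB the brighter probe (mean 9.57) gave -0.24 and the dimmer one (mean 8.46) gave -0.04.

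miR-192 and miR-194 share a transcript, and their changes were compared directly on each array. Of the 162 miRNAs less miR-192 itself, 40.8% of the pairs with a compound changed unlike miR-192. miR-194 did so in 3 of 15 compounds. The change of miR-192 minus that of miR-194 was -0.36 with CIDB (SE 0.08, limma adjusted p = 7.09e-05), and on the arrays filed as DHEA and DES it was -0.22 (SE 0.08, adjusted p = 0.0101) and 0.40 (SE 0.08, adjusted p = 0.000119). With the other pairing it was 0.40 for DHEA and -0.28 for DES. Scaled to the 75th percentile of the miRNAs detected on all arrays, the CIDB value was -0.08 (adjusted p = 0.627). The 2 miR-194 probes gave -0.24 and -0.04 with CIDB, and the difference was not tested by probe. With ETH the changes differed by -0.11, with a 95% interval of -0.27 to 0.06 (adjusted p = 0.188), and with MPy by 0.13 (-0.03 to 0.30, adjusted p = 0.128).

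Across arrays the deviations of miR-192 and miR-194 correlated with r = 0.546 over 63 arrays, 0.58 over the 21 group means, 0.273 within groups and 0.685 within scan days. Arrays share slides and scan days, so these are descriptions. By r over the 63 arrays the miRNAs most like miR-192 were miR-103 (0.59), miR-194 (0.546), miR-361 (0.539), miR-378* (0.474) and miR-7a (0.439). Those most like miR-194 were miR-30e (0.795), miR-378 (0.727), miR-30a (0.727), miR-26a (0.712) and miR-30b-5p (0.674), and miR-192 came 9th. Within scan days the order differed. There the r of miR-192 was 0.685 with miR-194 and 0.511 with miR-103, and that of miR-194 was 0.783 with miR-30e and 0.671 with miR-30b-5p. miR-122, the dominant hepatocyte miRNA, had r of 0.335 with miR-192 and 0.394 with miR-194. The normalization holds so bright a miRNA near a fixed level, which limits what these r values show.

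The vehicle sets differed in miR-194 and not detectably in miR-192. Over the 6 CO and 12 MC control rats miR-192 was 10.92 ± 0.07 and 10.94 ± 0.09 (SD), a difference of -0.02 (limma adjusted p = 0.793). miR-194 was 8.90 ± 0.07 and 9.15 ± 0.12, a difference of -0.25 (SE 0.04, limma adjusted p = 1.52e-05), with 34% of the miRNAs called. Both CO sets and MC set 6 were scanned on day 1, and the other MC sets on days 2 and 3. With scan day as a block the miR-194 difference was -0.13 (adjusted p = 0.431), with slide as a block it was -0.05 (adjusted p = 0.961), and against MC set 6 alone it was -0.08 (adjusted p = 0.946). Among rats given the same vehicle, miR-194 of MC sets 1 and 2 was 0.22 and 0.26 above that of MC set 6 (adjusted p = 0.0163 and 0.00801). These differences between controls were as large as several compound changes of miR-194.

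Class means were compared over compounds, with 1 fold change per compound. Both NC share MC set 2, both GC share CO set 3, and most NGC share MC set 1 or 5. The fold changes are therefore not independent, and the SE and p-values of the classes leave out the error of these shared controls. Over the 10 carcinogens miR-192 averaged -0.18 ± 0.28 and miR-194 -0.19 ± 0.15 (SD over compounds), against -0.11 and -0.05 over the 2 NC. The C vs NC difference was -0.06 (SE 0.19, limma adjusted p = 0.942) and -0.14 (SE 0.11, adjusted p = 0.759). NGC vs GC gave 0.07 (adjusted p = 0.934) and -0.07 (adjusted p = 0.874), and NGC vs NC gave -0.05 (adjusted p = 0.947) and -0.15 (adjusted p = 0.693). Limma called 0% of the miRNAs in each contrast, with 9, 19 and 11 of 162 at an unadjusted p under 0.05. With pooled vehicle controls miR-194 differed by -0.23 for C vs NC (adjusted p = 0.794). The largest changes of both members, with ETH, and of miR-192, with CIDB, came from different classes.

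Other miRNAs abundant in liver were read beside the members. Of 150 pairs of 10 such miRNAs with a compound, 22 were called lower (14.7%) and 3 higher (2%), against 6.71% and 7.57% over all miRNAs. With ETH 3 of the 10 fell, miR-26a by 0.27, miR-30a by 0.24 and miR-30d by 0.29, and the list's median was -0.03 against 0.00 over all miRNAs. With MPy miR-101a changed by -0.27 and miR-30c by -0.15, and the list's median was -0.15 against 0.01. On the arrays filed as DHEA miR-21 changed by -0.27 (limma adjusted p = 0.019), and the list's median was -0.06 against 0.00. With CIDB miR-122 changed by -0.33 (limma adjusted p = 3.04e-11) and miR-26a by -0.35, while miR-21, which rises in many forms of liver injury, was higher by 0.70. The most calls came from the arrays filed as DES, where miR-192 was higher. There miR-22 (-0.41), miR-101b (-0.33), miR-26a (-0.28), miR-21 (-0.22), miR-30a (-0.19) and miR-30c (-0.17) were lower and miR-148b-3p (0.05) was higher, with a median of -0.18 against 0.00. The change of miR-122 was 0.00 with ETH (adjusted p = 0.989) and 0.00 with PBO (adjusted p = 0.959), and with DMN it was -0.09 (adjusted p = 0.0329). The normalization holds so bright a miRNA near a fixed level, so a change of 0.00 does not show that miR-122 was unchanged.

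The miR-34 family, direct targets of p53, gave 0 lower and 10 higher calls (22.2%) in 45 pairs, against 6.71% and 7.57% over all miRNAs. Most of these calls were of miR-34a. The others were smaller changes, of miR-34b by 0.07 with CIDB and 0.21 with DMN, and of miR-34c by 0.07 with DMN. miR-34a was higher by 1.89 with ETH, 3.44 with CIDB, 1.12 with MPy and 0.40 on the arrays filed as DHEA, all with a lower member. With PBO it changed by -0.23 (limma adjusted p = 0.223) and on the arrays filed as DES by 0.13 (adjusted p = 0.396). It was also higher with DMN, TAA and AA by 1.96, 1.96 and 0.55, where no member was called. With the remaining compounds miR-34a was not called.

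Markers of other liver cells moved with some of these changes, and also with compounds for which no member was called. Of all 162 miRNAs, 16% were called with ETH, 20.4% with CIDB, 8.64% with PBO and 37% on the arrays filed as DES. With PB, AA, DMN, TAA and Wy the shares were 3.09%, 13.6%, 23.5%, 21.6% and 25.9%. With ETH 3 of 5 tested leukocyte miRNAs were higher, miR-142-3p by 0.32, miR-146a by 0.23 and miR-142-5p by 0.09, and the list's summed linear level was 1460 to 1500 against 1290 to 1320 in MC set 5. Of 4 tested mesenchymal miRNAs miR-143 was higher by 0.19, with sums of 1240 to 1340 against 1140 to 1210. These sums run over 5 miRNAs of the list, including an untested one detected on no array. Background was not subtracted, and the undetected miR-215 kept log2 values of 7.39 to 7.45. A large part of every sum given here is therefore this floor. With CIDB 1 of 5 leukocyte miRNAs was lower, miR-223, with a change of -0.15, and 3 of 6 biliary miRNAs, miR-200a, miR-200b and miR-429, were higher by 0.15, 0.31 and 0.12, with sums of 1330 to 1390 against 1210 to 1270. With PBO these 3 biliary miRNAs were higher by 0.31, 0.69 and 0.19, while miR-31 (0.17), miR-141 (-0.06) and miR-200c (-0.12) were not called, with sums of 1390 to 1510 against 1210 to 1240. With MPy no marker of these lists was called. On the arrays filed as DES 2 of 5 leukocyte miRNAs, miR-142-3p and miR-142-5p, were lower, with sums of 1120 to 1210 against 1290 to 1320, and so was the endothelial miR-126* (-0.09), while the biliary miR-429 was higher (0.08). Where no member was called, PB had miR-200a, miR-200b and miR-429 higher by 0.23, 0.48 and 0.15. With DMN 4 of 5 leukocyte miRNAs were higher, and 3 of 4 tested mesenchymal miRNAs and the endothelial miR-126 (-0.18) were lower. The mesenchymal miR-143 changed by 0.18 with AA, -0.19 with TAA and -0.22 with Wy. The part of cell composition in the changes of miR-192 and miR-194 was not tested.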

How the data were processed

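Per the file headers, the deposited scanner files hold spot intensities read by Agilent Feature Extraction 10.7.3.1, not normalized. The authors' value table holds normalized log2 values of 135 miRNAs without miR-215, made per the methods and the submitters' processing notes with RMA without background correction. No authors' comparisons were used.

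Here mean spot brightness was used without control spots and without the 2.87% of spots with an outlier flag. It was quantile normalized between arrays, averaged per probe, set to log2 and summarised per miRNA by median polish. No spot was saturated. Tests used limma 3.58.1 (R 4.3.3) on the 162 miRNAs detected on at least 1 of 63 arrays, over 21 groups, with Benjamini-Hochberg adjustment within each compound and a threshold of 0.05. Changes of miR-192 and miR-194 were compared by limma on within-array differences, classes by limma on the mean fold change per compound. Groups follow the sample labels. The limma fit was tested on simulated data with known changes in the ETH or CIDB group.

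The members, lists and tests were chosen with earlier results of these data known. Named were the members, called miRNAs of the fixed lists for compounds with a called member, and for each member the 5 miRNAs with the highest r. Further miRNAs were named after their values were seen. These were miR-34a with each compound given for it, miR-34b and miR-34c with DMN, and markers of other liver cells with PB, AA, DMN, TAA and Wy. They also were miR-122, with DMN or where not called, and miR-31, miR-141 and miR-200c where not called. Sequences are from RefSeq tables on GRCr8, and all 3 members were found there by name, with the array's names taken as the 5p arms.

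Alternatives were the value table, 75th percentile scaling of the processed signal, over detected or all probes, normexp (offset 50), a stricter detection filter or none, slide as fixed or random block, scan day as a block, pooled controls of a vehicle, only the groups compared, arrays paired as in the value table, a replicate block and leaving out each rat.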

Additional observations from a re-analysis of the deposited data

How the results depend on the processing

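Of the 30 fold changes, 7 were called. The count was 13 with pooled vehicle controls and 11 with arrays paired as in the value table, and 5 to 9 under the other settings. Leaving out each rat gave 6 to 11 calls, 11 without CIDB replicate 2, where miR-194 also passed with AA, Mcarb, CIDB and Wy. With arrays paired so, and in the value table, miR-192 turned to 0.26 and 0.31 with DHEA and to -0.47 and -0.56 with DES. The difference of the members' changes turned to 0.40 and 0.49 with DHEA and to -0.28 and -0.23 with DES. It was called for 3 compounds, and for 1 with the 75th percentile of the detected miRNAs. Replicate numbers shared by PB and MC set 6 and by CPA and CO set 4 did not pair the rats (r of -0.258 to 0.0451), and with the replicate block 7 fold changes were called.

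The CO minus MC difference of miR-192 was 0.01 in the value table, with the 75th percentile and with slide as a block, and -0.04 to 0.01 leaving out each control set. That of miR-194 was -0.13 with scan day and -0.05 with slide as a block, not called. miR-192 NGC vs GC was -0.18 with the 75th percentile. With slide as a block miR-194 gave 0.08 in NGC vs GC and 0.01 in NGC vs NC. None of these class values was called. The causes were not tested.

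Of the single fold changes under other settings, 290 kept their direction and their side of the threshold, 26 passed it and 13 lost it. A further 31 uncalled ones changed sign and 4 reversed. Size was not counted, and miR-192 with AA went from -0.10 to -0.49 with 75th percentile scaling over all probes. Compounds and their controls on different slides, 3 rats per group and the background left in the values limit what these arrays can resolve.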
